A study of Mus musculus with 4 samples.

Results

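The genes described here encode the proteasome and the enzymes that attach ubiquitin to proteins or remove it. They were chosen by symbol alone: subunits, activators, inhibitor and assembly factors of the proteasome (Psma to Psmg), the E1 and E2 enzymes of ubiquitin conjugation (Uba and Ube2) and the ubiquitin-specific proteases (Usp). Of the symbols of the mouse gene table, 167 are covered here, 57 of the proteasome and 110 of the ubiquitin enzymes, and 76 of them had a probe whose identifier carries the gene's NCBI number. Of these 76, 45 exceeded background on at least 1 of the 4 arrays, 21 proteasome genes and 24 ubiquitin genes, among 2711 genes tested in all and 8137 named. The symbol rule also takes in Psme3ip1, a partner of the PA28 gamma activator, and Usp6nl, a Rab GTPase activating protein and no deubiquitinase.

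The 4 arrays are single-colour Illumina arrays of sorted spleen cells, all from C57BL/6 mice of the genotype labelled prmd1-gfp, a reporter in which green fluorescent protein follows Blimp1, the transcription factor that drives plasma cell differentiation. Naive B cells, sorted as B220+ IgD+, fill 1 array. Plasma cells, sorted as CD138+ from pools of 5 to 10 animals, were split by reporter level into Blimp1-hi cells (1 array) and Blimp1-int cells with an intermediate level (2 arrays). The labels give no treatment for any group and no separate animals for the Blimp1-int pair, and the source field of the plasma cell arrays names follicular B cells, against the titles that set the groups here.

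All values are the deposited levels on a log2 scale, on which a difference of 1 is 2-fold if the scale is a plain log2; the sources used here do not say whether it is. Background lay between 8.63 and 8.68 on the 4 arrays, and 6483 to 7255 of 46120 probes exceeded it. The plasma cell arrays carried the plasma cell genes Xbp1, Jchain and Sdc1 above their naive level. The naive markers Cd72 and Fcer2a exceeded background on the naive array and on none of the plasma cell arrays. The reporter's own probe read 8.29 in naive B cells, 11.23 in Blimp1-hi cells, and 10.55 and 10.82 in Blimp1-int cells. Of the markers of other cell types, none of the 4 granulocyte genes with a named probe and not the 1 T or NK cell gene exceeded background, while 2 of 6 macrophage genes and 1 gene each of the erythroid and the endothelial list did. Apoe, a gene of macrophages, read 9.22 in naive B cells, 9.91 in Blimp1-hi cells, and 8.76 and 8.97 in Blimp1-int cells. Vcam1, the other macrophage gene tested, read 8.35, 8.46, 8.44 and 8.99 in that order and exceeded background on the last array only. The only measure of spread is the Blimp1-int pair, so each adjusted p below (limma, Benjamini-Hochberg over 2711 genes) assumes that the single naive and Blimp1-hi arrays vary as that pair does, and that spread may be technical. In sorted pools, fewer cells of a type and less RNA per cell cannot be told apart.

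The proteasome is a barrel of alpha and beta rings, the 20S core, in which the beta subunits cut proteins; the 19S cap, built of ATPases and non-ATPases, recognises ubiquitin chains and feeds the unfolded protein into the core. Ubiquitin is activated by an E1 enzyme, passed to an E2 and joined to the target with an E3 ligase, and deubiquitinases take it off again. In plasma cells, which secrete antibody, the proteasome also degrades misfolded chains returned from the endoplasmic reticulum, and interferon induces an alternative set of catalytic subunits and the PA28 activator that alter the peptides offered on MHC class I.

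The promoters of 4 proteasome genes are shown because they cover the gene with the largest rise (Psmd1), the one with the largest fall (Psme1), and a pair of core subunits whose windows hold a motif of proteasome or interferon control (Psmb5 and Psmb3). Each is the 250 bases before the gene's start, 5′ to 3′ on the gene's strand, from RefSeq on GRCm38.p6: Psmd1 at chr1:86064369-86064618 (plus strand), Psme1 at chr14:55578244-55578493 (plus strand), Psmb5 at chr14:54617996-54618245 (minus strand) and Psmb3 at chr11:97703184-97703433 (plus strand). Capitals mark matches to the antioxidant response element core (TGACNNNGC, the element bound by Nfe2l1 and its relatives), to the CCAAT box (CCAAT) and to the interferon-stimulated response element core (TTTC and TTTC with NN between), searched on both strands.
Psmd1: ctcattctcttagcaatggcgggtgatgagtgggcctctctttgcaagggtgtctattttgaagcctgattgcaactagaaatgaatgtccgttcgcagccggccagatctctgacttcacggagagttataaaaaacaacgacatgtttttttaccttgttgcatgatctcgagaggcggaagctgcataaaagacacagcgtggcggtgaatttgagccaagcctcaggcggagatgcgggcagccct
Psme1: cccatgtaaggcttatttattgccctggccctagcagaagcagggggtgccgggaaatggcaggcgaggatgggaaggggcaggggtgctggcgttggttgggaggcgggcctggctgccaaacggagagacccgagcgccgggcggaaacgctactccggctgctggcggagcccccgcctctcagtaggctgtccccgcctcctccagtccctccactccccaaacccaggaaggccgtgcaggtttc
Psmb5: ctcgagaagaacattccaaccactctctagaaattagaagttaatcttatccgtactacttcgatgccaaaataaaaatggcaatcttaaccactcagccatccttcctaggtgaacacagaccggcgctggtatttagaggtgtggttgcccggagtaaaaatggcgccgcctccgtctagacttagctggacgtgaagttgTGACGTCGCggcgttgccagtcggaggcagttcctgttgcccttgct
Psmb3: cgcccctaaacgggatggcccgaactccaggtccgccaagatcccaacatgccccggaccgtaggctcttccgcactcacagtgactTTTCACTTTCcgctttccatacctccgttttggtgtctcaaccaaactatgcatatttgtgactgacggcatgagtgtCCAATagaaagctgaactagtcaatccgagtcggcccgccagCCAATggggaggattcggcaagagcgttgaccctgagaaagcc
In Psmb5 the antioxidant response element core began 47 bases before the start. Psmb3 held a match to the interferon-stimulated response element core 163 bases before the start and CCAAT boxes at 85 and 43. The windows of Psmd1 and Psme1 held none of these letters. A promoter was found for 19 of the 21 proteasome genes, in 21 windows. The antioxidant response element core occurred in those of 2 genes, Psmb5 and Psmb6, and in 10.2% of all 32851 promoters. The CCAAT box occurred in those of 5 proteasome genes (Psma2, Psma3, Psmb3, Psmc1 and Psme3ip1) and in 33.8% of all promoters, and the interferon-stimulated response element core in that of Psmb3 and in 2.98% of all. Among 19 ubiquitin genes with a promoter, the same 3 motifs occurred in those of 3, 3 and 0 genes. These matches describe the letters and show no binding.

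Among these 45 genes, Psmd1 was the only one at least 2-fold higher in plasma cells and Psme1 the only one at least 2-fold lower with an adjusted p under 0.05. By that rule 1 of 21 proteasome genes rose and 1 fell in Blimp1-hi cells against naive B cells, where 4.35% of all genes tested rose and 7.49% fell, and the counts were 1 and 1 in Blimp1-int cells, where 5.79% rose and 5.61% fell. None of the 24 ubiquitin genes rose or fell by 2-fold in either comparison. By the adjusted p alone, 5 proteasome genes rose and 8 fell in Blimp1-hi cells (21.5% and 29.8% of all genes), and 10 rose and 3 fell in Blimp1-int cells (27.5% and 29.0%). The median difference from naive B cells over the 21 proteasome genes was −0.21 in Blimp1-hi cells and −0.00 in Blimp1-int cells, against −0.06 and 0.01 over all genes tested. Over the 18 of them above background on all 4 arrays it was −0.15 and 0.33. By the adjusted p, 5 of these 18 rose and 6 fell in Blimp1-hi cells, and 10 rose and 1 fell in Blimp1-int cells. The shares and medians over all genes include genes below background on some arrays, so they do not match this filter. At mean levels of 9 to 12, where most of the 18 lie, 27.2% to 33.1% of all genes rose in Blimp1-hi cells, by level bin. There 31.6% to 46.6% fell, and in Blimp1-int cells 35.0% to 42.7% rose and 32.4% to 39.8% fell. Psme2 and Psmg3, counted among the falls of the 21 in both comparisons, passed the filter through the naive array only, which fixed their direction. In what follows, rose and fell refer to the adjusted p, and called to a gene that also changed by 2-fold.

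**Figure D1:**
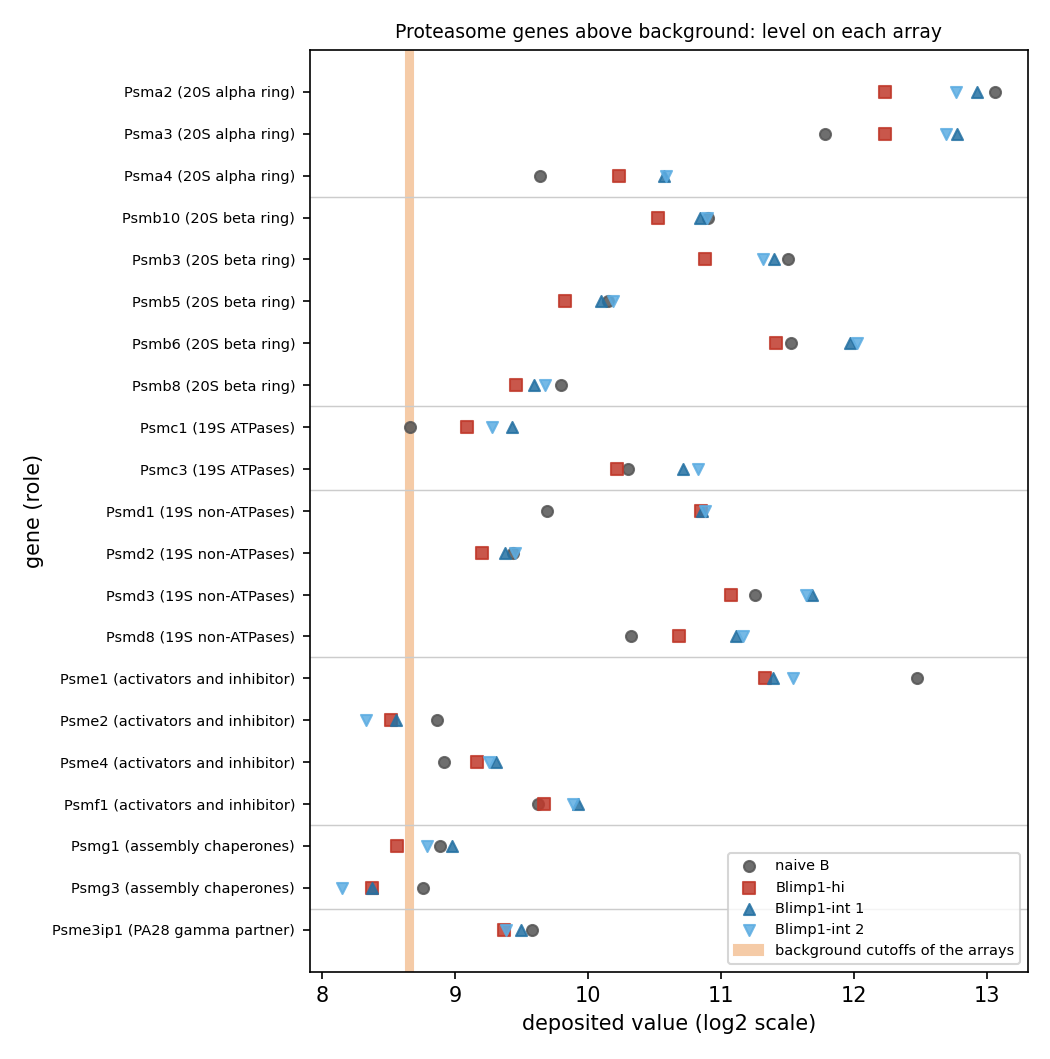
Level of each proteasome gene above background (log2, x axis) on the naive, Blimp1-hi and 2 Blimp1-int arrays, 1 point per array, genes grouped by role. Psmd1 lies to the right on all 3 plasma cell arrays and Psme1 to the left, while most 20S and 19S genes have their Blimp1-hi point left of both Blimp1-int points.

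Psmd1 encodes the large non-ATPase scaffold of the 19S base. Its level was 9.69 in naive B cells, 10.85 in Blimp1-hi cells, and 10.86 and 10.88 in Blimp1-int cells, so the 3 plasma cell arrays lay close together and far above the naive one. The rise was 2.23-fold in Blimp1-hi cells (log2 difference 1.16, SE 0.12, adjusted p = 5.36e-06) and 2.26-fold in Blimp1-int cells (1.18, SE 0.10, adjusted p = 8.93e-07). Psmd8, which encodes a subunit of the 19S lid, read 10.32 in naive B cells, 10.69 in Blimp1-hi cells, and 11.11 and 11.16 in Blimp1-int cells. It rose by 0.36 in Blimp1-hi cells (adjusted p = 0.0232) and by 0.81 in Blimp1-int cells (adjusted p = 2.48e-05), the naive array reading lowest and the Blimp1-int arrays highest. Psmd3, another lid subunit, read 11.26 in naive B cells, 11.07 in Blimp1-hi cells, and 11.68 and 11.64 in Blimp1-int cells. It rose in Blimp1-int cells by 0.40 (adjusted p = 0.00488), and its Blimp1-hi difference of −0.19 did not pass (adjusted p = 0.206). Psmd2, the other large scaffold of the base, read 9.43, 9.20, 9.38 and 9.45 in the same order, with the naive level inside the range of the plasma cell arrays. It therefore did not share the 2-fold difference of Psmd1, and its differences of −0.23 and −0.02 did not pass the test.

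The measured 19S ATPases were Psmc1 and Psmc3, both part of the ring that unfolds substrates. Psmc1 read 8.66 in naive B cells, just above background, 9.09 in Blimp1-hi cells, and 9.42 and 9.28 in Blimp1-int cells. It rose by 0.43 in Blimp1-hi cells (adjusted p = 0.013) and by 0.69 in Blimp1-int cells (adjusted p = 0.000158), so all 3 plasma cell arrays lay above the naive one. Psmc3 read 10.30 in naive B cells and 10.22 in Blimp1-hi cells, against 10.71 and 10.82 in Blimp1-int cells. It rose in Blimp1-int cells (0.47, adjusted p = 0.00232), the naive and Blimp1-hi arrays being 0.08 apart.

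The 3 measured alpha subunits of the 20S core, which gate the barrel, did not move together. Psma3 read 11.78 in naive B cells, 12.23 in Blimp1-hi cells, and 12.77 and 12.69 in Blimp1-int cells, a rise of 0.45 in Blimp1-hi cells (adjusted p = 0.00797) and of 0.95 in Blimp1-int cells (adjusted p = 7.34e-06). Psma4 read 9.64, 10.23, 10.57 and 10.58 in that order, a rise of 0.59 (adjusted p = 0.0011) and of 0.94 (adjusted p = 6.83e-06). Both were thus lowest in naive B cells and highest in Blimp1-int cells, with Blimp1-hi cells between. Psma2, the brightest proteasome gene, went the other way: it read 13.06 in naive B cells, 12.23 in Blimp1-hi cells, and 12.93 and 12.77 in Blimp1-int cells. It fell by 0.83 in Blimp1-hi cells (adjusted p = 0.000158), and the Blimp1-int difference of −0.21 did not pass (adjusted p = 0.12). Of all genes tested with a mean level above 12, 58.2% fell in Blimp1-hi cells and 49.1% in Blimp1-int cells, with median differences of −0.74 and −0.28.

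Of the 5 measured beta subunits, 4 fell in Blimp1-hi cells and 1 rose in Blimp1-int cells, against 29.8% and 27.5% of all genes. These shares moved with level. At mean levels of 9 to 10, 10 to 11 and 11 to 12, 31.6%, 40.6% and 46.6% of all genes fell in Blimp1-hi cells. At the same levels 35.0%, 40.0% and 42.7% rose in Blimp1-int cells. Psmb3, a structural beta subunit, read 11.50 in naive B cells, 10.88 in Blimp1-hi cells, and 11.40 and 11.32 in Blimp1-int cells, a fall of 0.62 in Blimp1-hi cells (adjusted p = 0.00093). Psmb6, which carries the caspase-like site, read 11.52, 11.41, 11.97 and 12.02 in that order and rose by 0.47 in Blimp1-int cells (adjusted p = 0.00182). Psmb5, which carries the chymotrypsin-like site, read 10.15, 9.83, 10.09 and 10.18, and its fall of 0.32 in Blimp1-hi cells was small (adjusted p = 0.0409). On the Blimp1-hi array, 51.9% of all genes tested read below both Blimp1-int arrays. All 5 measured beta subunits had their lowest reading there in the deposited scaling. This depended on the scaling: with quantile normalization without the immunoglobulin probes, Psmb6 lay 0.28 above its naive level, and the falls of Psma2 (−0.27), Psmb3 (−0.30), Psmb5 (−0.22), Psmb8 (−0.26) and Psmb10 (−0.18) no longer passed.

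Psmb8 is the interferon-inducible counterpart of Psmb5, and Psmb10 is that of the trypsin-like subunit. Psmb8 read 9.80 in naive B cells, 9.46 in Blimp1-hi cells, and 9.59 and 9.68 in Blimp1-int cells. Psmb10 read 10.90, 10.52, 10.84 and 10.89 in the same order. Both fell in Blimp1-hi cells, by 0.34 (adjusted p = 0.0333) and 0.38 (adjusted p = 0.0184), and neither passed in Blimp1-int cells, where the differences were −0.16 and −0.04.

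Psme1 encodes the alpha subunit of PA28, the interferon-inducible activator that opens the 20S core without ubiquitin. Its level was 12.47 in naive B cells, 11.33 in Blimp1-hi cells, and 11.39 and 11.54 in Blimp1-int cells, so every plasma cell array lay well below the naive one. Its log2 difference was −1.14 in Blimp1-hi cells (SE 0.13, adjusted p = 1.04e-05) and −1.004 in Blimp1-int cells (SE 0.11, adjusted p = 6.74e-06), and the latter was −0.93, short of 2-fold, without Blimp1-int replicate 1. A second probe read 11.56, 10.26, 10.39 and 10.30, with differences of −1.29 and −1.21. Without the immunoglobulin probes in the quantile normalization, both differences shrank to −0.66 and no longer reached 2-fold. Psme2, the beta subunit of PA28, exceeded background on the naive array only (8.86, against 8.52 in Blimp1-hi cells, and 8.55 and 8.33 in Blimp1-int cells), so it was at least 1.16-fold lower in Blimp1-hi cells (adjusted p = 0.0484) and at least 1.15-fold lower in Blimp1-int cells (adjusted p = 0.0078). Having passed the filter only through the naive array, Psme2 had its direction fixed by it. Of the other interferon-inducible proteasome genes, Psmb8, Psmb10 and Psme1, all above background on every array, each fell in Blimp1-hi cells and Psme1 alone in Blimp1-int cells (29.8% and 29.0% of all genes fell), and without the immunoglobulin probes Psme1 was the only one of them whose Blimp1-hi fall passed.

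The other regulators behaved differently. Psme4, which encodes the activator PA200, read 8.91 in naive B cells, 9.16 in Blimp1-hi cells, and 9.31 and 9.26 in Blimp1-int cells, and it rose in Blimp1-int cells (0.37, adjusted p = 0.00869). Psmf1, the inhibitor PI31, read 9.62, 9.67, 9.92 and 9.88 and also rose there (0.28, adjusted p = 0.0319). The assembly chaperone gene Psmg3 exceeded background only in naive B cells (8.76, against 8.37, 8.38 and 8.15), and was at least 1.08-fold lower in Blimp1-hi cells and at least 1.06-fold lower in Blimp1-int cells. The filter fixed this direction, as for Psme2. Psmg1, another assembly chaperone gene, read 8.88, 8.56, 8.98 and 8.78, below background in Blimp1-hi cells alone, and passed in no comparison. Psme3ip1 read between 9.36 and 9.58 on all 4 arrays and did not pass either. Psmc6, Psmd11, Psmd9 and Psma5 had a probe but stayed below background on every array.

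**Figure D2:**
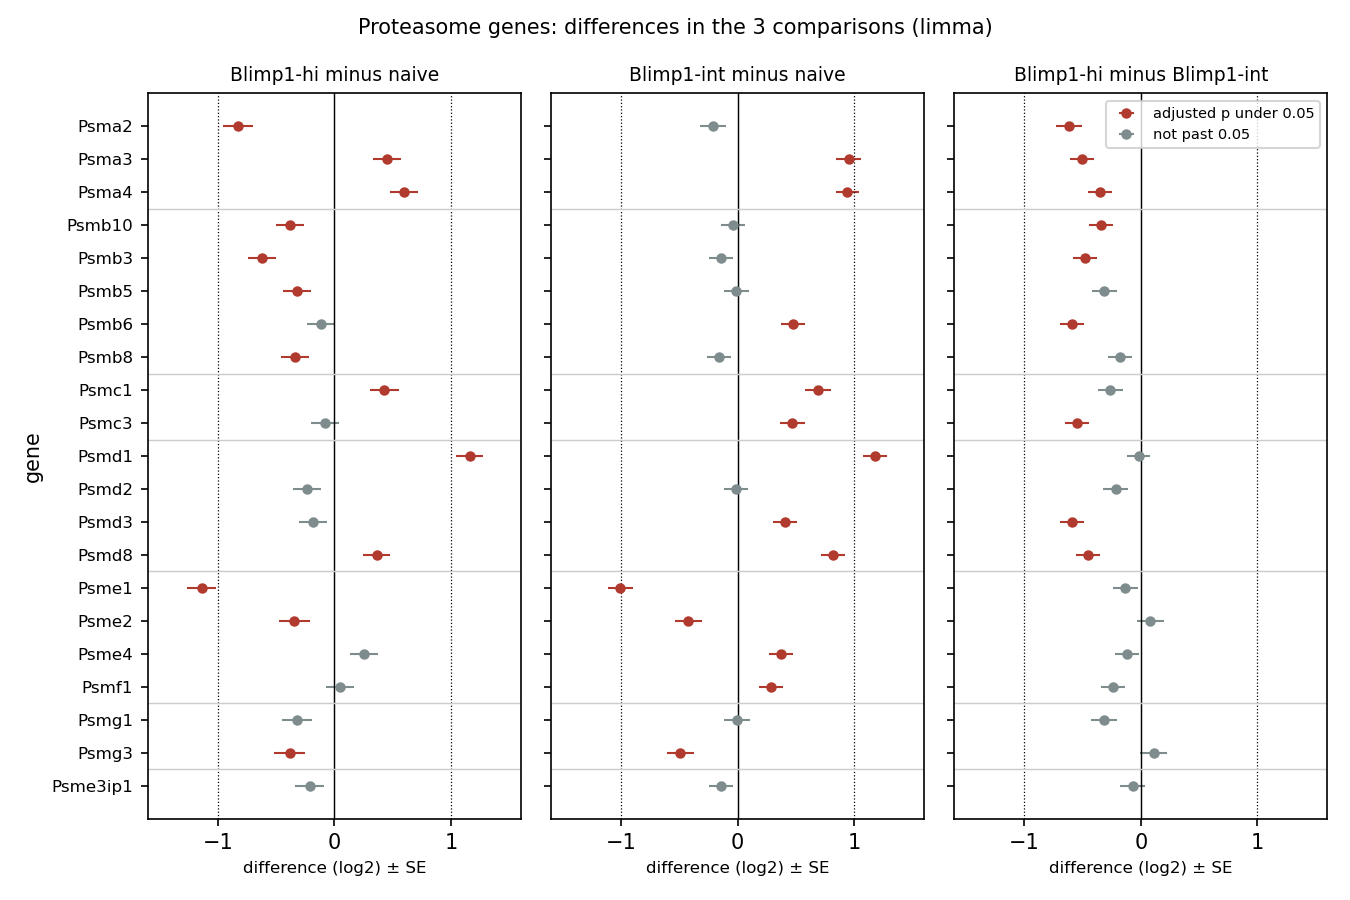
Difference of each proteasome gene on the log2 scale (x axis) in 3 panels, Blimp1-hi minus naive, Blimp1-int minus naive and Blimp1-hi minus Blimp1-int, with bars of 1 standard error from the limma fit, dotted lines at 2-fold and red points at an adjusted p under 0.05. Psmd1 and Psme1 reach 2-fold in the first and second panels, and in the third panel all 14 of the 20S and 19S subunits lie left of 0.

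The plasma cell populations were then compared with each other. No proteasome gene differed by 2-fold between Blimp1-hi and Blimp1-int cells, where 0.258% of all genes tested were called higher and 0.406% lower. By the adjusted p alone 9 of 21 proteasome genes were lower in Blimp1-hi cells and none was higher, against 9.7% lower and 2.95% higher over all genes. The 9 were Psma2, Psma3, Psma4, Psmb3, Psmb6, Psmb10, Psmc3, Psmd3 and Psmd8, all of the 20S core or 19S cap. The differences were largest for Psma2 (−0.61, SE 0.11, adjusted p = 0.00351), Psmd3 (−0.59, adjusted p = 0.00311) and Psmb6 (−0.59, adjusted p = 0.00324). Psmd1 was not among them: its Blimp1-hi level lay 0.02 below the mean of the Blimp1-int arrays (adjusted p = 0.933).

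On the Blimp1-hi array, 19 of 21 proteasome genes read below both Blimp1-int arrays, and this held for all 14 of the 20S and 19S subunits. The exceptions, Psme2 and Psmg3, were below background on every plasma cell array, so their order there is not informative. Over all genes tested, 51.9% read below both and 28.8% above both, and of the 533 genes with a mean level above 10, 65.3% read below both. The median Blimp1-hi minus Blimp1-int difference was −0.31 for the proteasome genes, −0.40 for the 20S and 19S subunits, and −0.06 over all genes.

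The difference between the plasma cell populations moved with the level of a gene. Over all genes tested the median Blimp1-hi minus Blimp1-int difference went from −0.03 at mean levels of 8 to 9 to −0.06 at 9 to 10, to −0.13 at 10 to 11, to −0.21 at 11 to 12 and to −0.38 above 12. The proteasome genes at those levels had medians of 0.08 (3 genes), −0.20 (6 genes), −0.34 (6 genes), −0.53 (4 genes) and −0.56 (2 genes). At 8 to 9, Psme2 and Psmg3 were below background on every plasma cell array. The share of all genes lower by the adjusted p was 3.24% at 8 to 9 and 8.01% at 9 to 10, where no proteasome gene was lower. It was 17.2% at 10 to 11 and 32.0% at 11 to 12, where 4 of 6 and 3 of 4 proteasome genes were lower. Above 12 the share was 55.5%, and both proteasome genes there were lower. Cyclic loess, a scaling that removes such level-dependent shifts, left 3 proteasome genes lower (Psmb6, Psmc3 and Psmd3). Cell cycle genes moved the same way between these populations. By the adjusted p, 9 of 11 tested were lower in Blimp1-hi cells, against 9.7% of all genes. Mki67 was lower by 1.09 and Cdc20 by 1.05. Rrm2, among the 9, exceeded background on the Blimp1-int arrays only, which fixed its direction. Apoe was 1.05 higher in Blimp1-hi cells, while Vcam1, the other macrophage gene tested, had a difference of −0.25 that did not pass. The part of these genes' cells in the result was not tested.

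**Figure D3:**
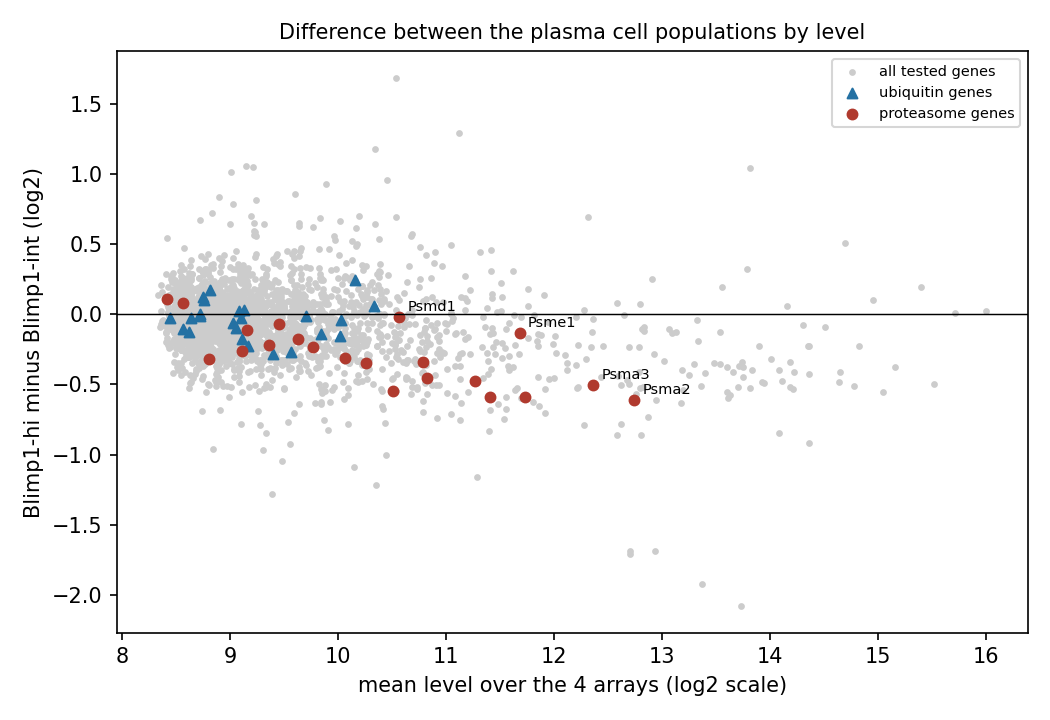
Blimp1-hi minus Blimp1-int difference (log2, y axis) against the mean level of the gene (log2, x axis) for all 2711 genes tested, with the proteasome and ubiquitin genes marked. The cloud bends below 0 at high levels, and most proteasome genes between 10 and 13 lie in its lower part.

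Of the 24 ubiquitin genes, 5 rose and 3 fell in Blimp1-hi cells by the adjusted p alone, and 6 rose and 4 fell in Blimp1-int cells, with a median difference of 0.07 and 0.16 from naive B cells. Over the 15 of them above background on all 4 arrays both medians turned sign, to −0.06 and −0.05. Of these 15, 2 rose and 2 fell in Blimp1-hi cells, and 3 rose and 3 fell in Blimp1-int cells. Each of these counts is a share below that over all genes tested. Between the plasma cell populations 0 of the 24 passed the adjusted p in limma, against 9.7% lower and 2.95% higher over all genes. In the same fit 3 of the 24, and 726 of all 2711 genes, had an unadjusted p under 0.05. The median difference was −0.03, against −0.06 over all genes. Most of the 24 had mean levels of 8 to 9 or 9 to 10, where 3.24% and 8.01% of all genes were lower.

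**Figure D4:**
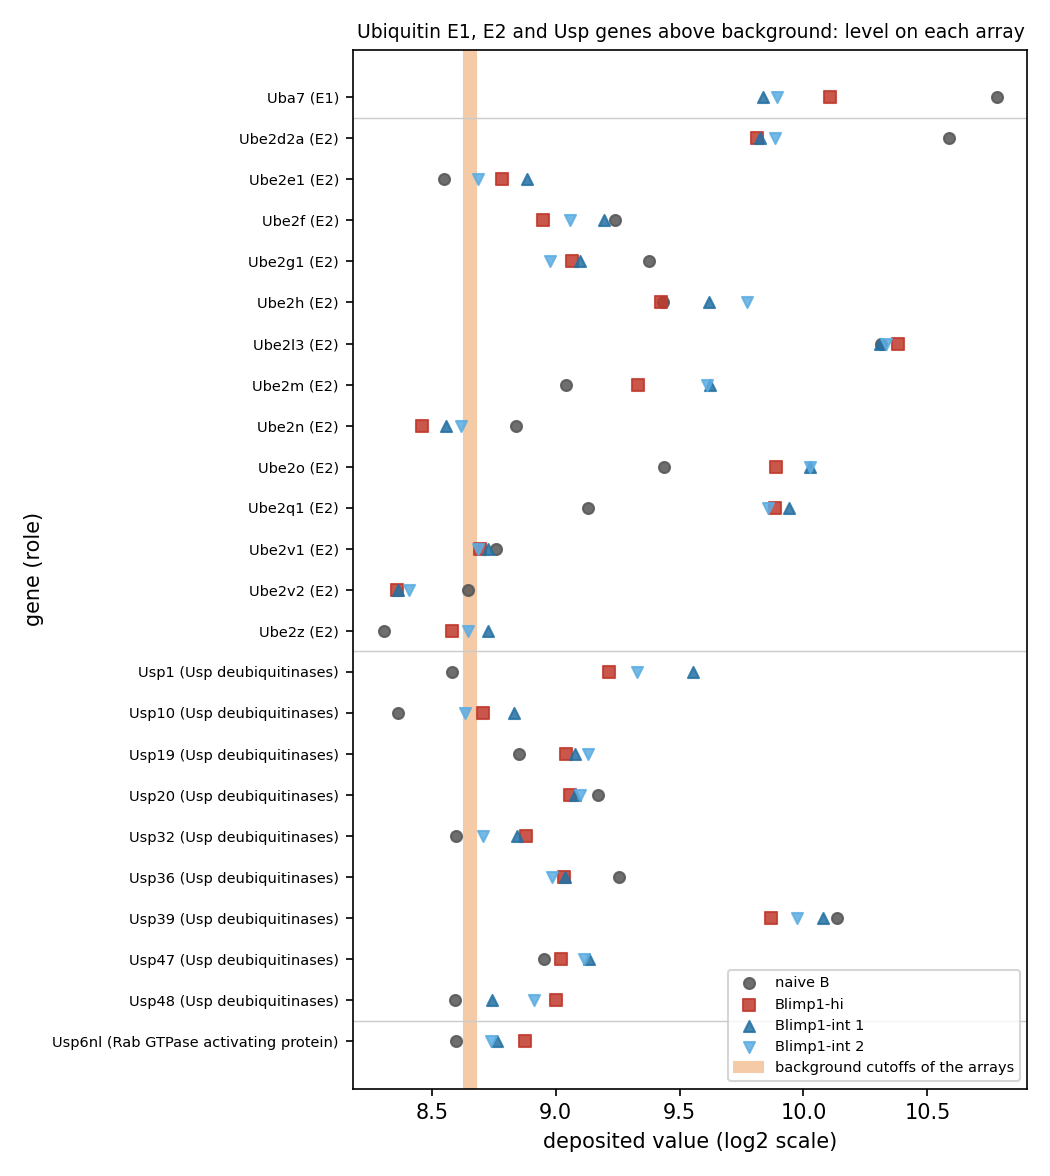
Level of each ubiquitin gene above background (log2, x axis) on the naive, Blimp1-hi and 2 Blimp1-int arrays, 1 point per array, genes grouped by role. Uba7 and Ube2d2a have their naive point to the right of the others, and Ube2q1, Ube2o and Usp1 have it to the left.

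Of the genes that encode ubiquitin itself, Rps27a, which encodes it fused to a ribosomal protein, fell by 1.01 in Blimp1-hi cells and by 0.69 in Blimp1-int cells, and Ubb, a polyubiquitin gene, by 0.75 and 0.38. Both read above 12 on every array. Of all 110 genes tested with a mean level above 12, 58.2% fell in Blimp1-hi cells and 49.1% in Blimp1-int cells. The median differences of those 110 genes were −0.74 and −0.28.

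Uba7 is the E1 enzyme of Isg15, an interferon-induced ubiquitin-like protein, and was the only one of the reported Uba genes above background. It read 10.78 in naive B cells, 10.11 in Blimp1-hi cells, and 9.84 and 9.89 in Blimp1-int cells. The fall was 0.67 in Blimp1-hi cells (adjusted p = 0.000473) and 0.92 in Blimp1-int cells (adjusted p = 9.31e-06), so here the Blimp1-hi array lay between the others.

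Of the 13 E2 genes reported, 2 rose and 2 fell in Blimp1-hi cells, and 4 rose and 3 fell in Blimp1-int cells, beside 21.5%, 29.8%, 27.5% and 29.0% of all genes in that order. Counted there are Ube2n (a fall in Blimp1-hi cells), Ube2v2 (a fall in Blimp1-int cells) and Ube2z (a rise in Blimp1-int cells). Each passed the filter through 1 group only, which fixed its direction. Ube2d2a, an E2 that serves many E3 ligases, read 10.59 in naive B cells, 9.81 in Blimp1-hi cells, and 9.82 and 9.88 in Blimp1-int cells. It fell by 0.78 (adjusted p = 0.00016) and by 0.73 (adjusted p = 6.23e-05), the 3 plasma cell arrays lying close together, and a second probe gave −0.44 and −0.54. Ube2q1 showed the opposite pattern, with 9.13 in naive B cells, 9.89 in Blimp1-hi cells, and 9.94 and 9.86 in Blimp1-int cells. It rose by 0.75 (adjusted p = 0.000221) and by 0.77 (adjusted p = 4.77e-05). Ube2o, which combines E2 and E3 activity, read 9.44, 9.89, 10.03 and 10.03 and rose by 0.45 (adjusted p = 0.00661) and by 0.59 (adjusted p = 0.000324). For both genes all 3 plasma cell arrays lay above the naive one.

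Ube2m, the E2 that passes Nedd8 to cullins, read 9.04 in naive B cells, 9.33 in Blimp1-hi cells, and 9.62 and 9.61 in Blimp1-int cells. It rose by 0.57 in Blimp1-int cells (adjusted p = 0.000404), and its Blimp1-hi difference of 0.29 did not pass (adjusted p = 0.0556). Ube2z, below background in naive B cells and in Blimp1-hi cells, exceeded it on 1 of the Blimp1-int arrays (8.31, 8.58, 8.73 and 8.65). Ube2n, the E2 that builds lysine-63-linked chains, exceeded background in naive B cells only (8.84, against 8.46, 8.56 and 8.62), as did its partner Ube2v2 (8.65, against 8.36, 8.37 and 8.41). Ube2g1, an E2 tied to degradation from the endoplasmic reticulum, read 9.38, 9.07, 9.10 and 8.98 and fell by 0.34 in Blimp1-int cells (adjusted p = 0.0161), while its second probe gave −0.06 and −0.15. Ube2l3, an E2 of HECT and RBR ligases, was nearly level, at 10.31, 10.38, 10.31 and 10.33. The other 4 E2 genes (Ube2e1, Ube2f, Ube2h and Ube2v1) passed in no comparison and read between 8.55 and 9.77.

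Of the 9 Usp genes other than Usp6nl, those that passed the adjusted p were below background in naive B cells. The filter admitted them only through the plasma cell arrays, and their direction was fixed by it. Usp1, which acts on monoubiquitinated PCNA and FANCD2, was below background in naive B cells (8.58) and read 9.22 in Blimp1-hi cells, and 9.55 and 9.33 in Blimp1-int cells. Its rise was at least 1.502-fold in Blimp1-hi cells (adjusted p = 0.00176) and at least 1.75-fold in Blimp1-int cells (adjusted p = 4.64e-05). Usp10, which acts on p53 among other targets, was below background in naive B cells (8.36) and read 8.71, 8.83 and 8.63 on the plasma cell arrays, at least 1.05-fold and at least 1.07-fold higher, with 1 of the Blimp1-int arrays below background. Usp48 was likewise below background in naive B cells (8.59) and read 9.0005 in Blimp1-hi cells, and 8.74 and 8.91 in Blimp1-int cells, at least 1.29-fold higher in Blimp1-hi cells (adjusted p = 0.0181). Usp6nl, set apart by function, read 8.60 in naive B cells, 8.88 in Blimp1-hi cells, and 8.77 and 8.74 in Blimp1-int cells, and did not pass. The other 6 of the 9 Usp genes (Usp19, Usp20, Usp32, Usp36, Usp39 and Usp47) passed in neither comparison. Usp39, a factor of the spliceosome, was the brightest of them at 9.87 to 10.13. A further 27 ubiquitin genes with a probe, 17 of them Usp genes, stayed below background on every array.

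Pathway lists around these genes gave the setting. Of 6 genes tested for p97, the ATPase that pulls ubiquitinated proteins from the endoplasmic reticulum membrane, and its cofactors, 4 rose in both plasma cell populations by the adjusted p, by which 21.5% of all genes rose in Blimp1-hi cells and 27.5% in Blimp1-int cells. Vcp, which encodes p97 itself, read 11.09 in naive B cells, 12.46 in Blimp1-hi cells, and 12.64 and 12.73 in Blimp1-int cells, a called rise of 1.38 and 1.597. None of the 6 tested proteasome partners was called, beside 4.35% of all genes called higher and 7.49% lower in Blimp1-hi cells. In Blimp1-int cells these shares were 5.79% and 5.61%. Among the partners Ecpas, a proteasome adaptor and scaffold, rose by 0.91 and 0.74. Nfe2l1, the factor that induces proteasome subunits when proteasome activity is short, read 10.04 in naive B cells, 10.55 in Blimp1-hi cells, and 10.02 and 10.08 in Blimp1-int cells. It was 0.50 higher in Blimp1-hi than in Blimp1-int cells (adjusted p = 0.0078). The other regulators tested, Nfyb and Mafg, had differences of −0.27 and −0.15 there, which did not pass.

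None of 17 E3 ligase genes tested outside the cullin and APC lists was called. By the adjusted p alone 4 rose and 6 fell in Blimp1-hi cells (21.5% and 29.8% of all genes). In Blimp1-int cells 5 rose and 7 fell (27.5% and 29.0% of all genes). Birc2 and Ubr4, among the rises in both, were below background in naive B cells, so the filter fixed their direction. Of 11 cullin, SCF and APC genes, Fbxw7, an F-box substrate receptor, rose by 1.35 and 1.34, and Klhl6, a B cell substrate adaptor, fell, with differences of −2.89 and −2.795. Anapc5, an APC subunit, fell by 1.23 in Blimp1-hi cells and had a difference of −0.07 in Blimp1-int cells. Cdc20, the APC activator of mitosis, rose by 1.13 in Blimp1-int cells. Of the 8 genes of ubiquitin-like modifiers, 6 fell in both populations by the adjusted p, against 29.8% and 29.0% of all genes: Fau, which encodes a ubiquitin-like protein fused to ribosomal protein S30, had differences of −2.38 and −2.38, and Sae1, an E1 subunit for SUMO, of −1.24 and −0.46. None of 8 deubiquitinases outside the Usp family was called, beside 4.35% of all genes called higher and 7.49% lower in Blimp1-hi cells. In Blimp1-int cells these shares were 5.79% and 5.61%.

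Set beside the interferon-inducible proteasome genes, 5 of 20 listed interferon response genes were tested. By the adjusted p, 3 fell in Blimp1-hi cells and 4 in Blimp1-int cells (29.8% and 29.0% of all genes fell). None of these was called, beside 7.49% and 5.61% of all genes called lower. Oas1a, among the falls in both, exceeded background on the naive array only, so the filter fixed its direction. Irf1, a factor that induces the immunoproteasome, fell by 0.81 and 0.82. Of 12 listed MHC class I genes, only 3 were tested, too few to set against the shares of all genes. None of the 3 fell, where 29.8% and 29.0% of all genes fell and 21.5% and 27.5% rose. H2-K1 rose by 2.45 and 2.47, B2m by 0.40 and 0.63, and H2-T23 had differences of −0.30 and −0.06 that did not pass.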

How the data were processed

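RNA from 4 sorted cell samples was measured on Illumina arrays, per the labels. All results start from the authors' deposited log2 values, produced in lumi (version not named) per the submitters' processing notes. The 4 arrays share their quantiles, with a median of 8.36 on each, and no source used here says whether the scale is plain or variance-stabilised. In the deposited raw table, 8 columns match no sample by name and were not used. A background level replaced the planned filter on detection p-values: on each array, 3 standard deviations above the mean of 42 probes for foreign sequences.

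An NCBI gene number stood in the identifiers of 11897 probes, and for 9832 of these probes it matched the RefSeq gene table (GRCm38.p6). Each gene took its brightest probe above background on at least 1 array, and a gene below background in a group has only a bound on its fold, set by the lowest signal above background. limma 3.58.1 in R 4.3.3 (lmFit, eBayes, two-sided) fitted 3 groups to 4 arrays, with 1 residual degree of freedom and a prior of 11.2. The steps were tested on simulated data. Called genes passed 2-fold at an adjusted p under 0.05. Alternatives were other background filters, 3 other scalings, the mean of a gene's probes, an intensity trend in the prior, and leaving out each Blimp1-int array.

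The genes and the pathway lists were chosen with earlier results of these data known; some items that the symbol rule or a list takes in are not reported here, though the fit and its background counts include them. Named members are all that were called and at least the 2 largest differences per role among the rest; further members that passed the adjusted p, and those below background, were named after their values were seen. From other lists, called genes are named, and uncalled ones (Ecpas, Nfe2l1, Nfyb, Mafg, Ubb, Irf1, B2m, H2-T23, Vcam1, Oas1a, Birc2, Ubr4, Rrm2) were picked with their values in view. The sequences are RefSeq promoters, the 250 bases before each start.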

Additional observations from a re-analysis of the deposited data

Results flagged for a closer look

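A test of the difference between the plasma cell populations themselves (limma, adjusted p under 0.05 over all genes tested) singled out 9 of the 45 genes, each lower in Blimp1-hi than in Blimp1-int cells. The log2 differences were −0.61 for Psma2, −0.50 for Psma3, −0.35 for Psma4, −0.48 for Psmb3, −0.59 for Psmb6, −0.34 for Psmb10, −0.55 for Psmc3, −0.59 for Psmd3 and −0.45 for Psmd8, all proteasome genes. Their adjusted p values ran from 0.00311 for Psmd3 to 0.0477 for Psmb10, and the Blimp1-hi group is 1 array. Psma3, Psma4 and Psmd8 rose from naive B cells in both populations, by less in Blimp1-hi cells, whereas Psma2 fell in Blimp1-hi cells and its Blimp1-int difference did not pass.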

How the results depend on the processing

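Psmd1 was called higher in both plasma cell populations under all 9 settings that allow a test, the reported one included. Psme1 was called lower in Blimp1-hi cells under 7 of them and in Blimp1-int cells under 6. No paired analysis was possible because the naive and Blimp1-hi groups have 1 array each. Leaving out a Blimp1-int array leaves no residual degree of freedom and hence no test; proteasome genes 2-fold lower in Blimp1-int cells then ranged from 0 to 1, with 0 and Psme1 at −0.93 without Blimp1-int replicate 1. The cause of the shifts below was not tested.

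Against naive B cells, the 2-fold count of lower proteasome genes in Blimp1-hi cells went from 1 to 0 with cyclic loess and without immunoglobulin probes. In Blimp1-int cells it went from 1 to 0 with these and with 75th percentile scaling, and the higher count from 1 to 3 without immunoglobulin probes (Psma3 and Psma4 added). By the adjusted p alone in place of the 2-fold rule, Blimp1-hi cells had 5 proteasome genes higher and 8 lower and 5 ubiquitin genes higher and 3 lower, Blimp1-int cells had 10 and 3, and 6 and 4, and Blimp1-hi against Blimp1-int cells had 9 proteasome genes lower. The 8 lower proteasome genes became 5 with 75th percentile scaling, 5 with cyclic loess, 2 without immunoglobulin probes and 5 with only genes above background on every array, a filter that tests fewer genes and also left 1 of 3 in Blimp1-int cells. The 5 higher ubiquitin genes became 10 with 75th percentile scaling, 8 with cyclic loess, 8 with an intensity trend and 2 with that filter, and the 3 lower became 6 with no filter and 6 with the trend. In Blimp1-int cells the 6 higher ubiquitin genes became 10 with 75th percentile scaling and 3 with that filter. Between the plasma cell populations, the 9 lower proteasome genes became 3 with cyclic loess, and the lower ubiquitin genes went from 0 to 1 with no filter. Signal over background limits 12 of the 45 genes, which were below background on 1 to 3 arrays.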
